A study of Mus musculus with 3 samples.

Results

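The bZIP genes of the ATF, CREB and BATF groups (Atf1, Atf2, Atf3, Atf4, Atf5, Creb1, Crem, Batf, Batf3 and Jdp2) were followed in macrophage RNA. They were taken by gene symbol, and all 10 were found among the 55536 annotated genes of the tables, with 98 of the 141862 annotated transcripts. The RNA came from the cytosol of bone marrow-derived macrophages, primary cells grown from marrow progenitors, of the mouse strain C57BL/6J. All cells had met 100 ng/ml Lipid A, the part of bacterial lipopolysaccharide that Toll-like receptor 4 recognises, for 40 minutes. The 3 libraries of ribosomal RNA-depleted total RNA, biological replicates 1, 2 and 3, form 1 group, and their sample records share 1 donor record, with sex and age not collected. Cells without Lipid A and other cell fractions were not analysed here. Values are therefore levels and not responses to Lipid A, and the spread between libraries may be technical.

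A bZIP protein binds DNA through a basic region that continues into a leucine zipper, and it does so as a dimer, so the set of partners a cell makes decides which pairs can form. CREB1, ATF1 and CREM bind the cAMP response element (CRE) and act once protein kinase A, or the MSK kinases downstream of Toll-like receptors, phosphorylate them. ATF2 is a target of the p38 and JNK kinases, ATF4 and ATF5 are made when eIF2alpha is phosphorylated under stress, and ATF3, JDP2, BATF and BATF3 pair with JUN proteins at AP-1 and CRE-like sites. In mouse macrophages ATF3 is known as a brake on cytokine genes that Toll-like receptors switch on.

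The stretch that touches DNA can be compared between members. The coding sequence of the most abundant transcript that holds the basic region is given for 9 members, 27 bases 5′ to 3′ on the coding strand, with capitals for the codons that the search pattern fixed (asparagine, a pair of alanines and arginine).
Atf3: AATaaaattGCTGCTgccaagtgtCGA
Jdp2: AACaaagtcGCTGCAgccagatgcCGG
Batf: AATcgcatcGCTGCCcagaagagcCGA
Batf3: AACcgggttGCAGCTcagaggagcCGG
Atf4: AACaagacaGCAGCCactaggtacCGC
Atf5: AATaagtcaGCTGCTctcaggtacCGC
Creb1: AACagggagGCAGCAagagaatgtCGT
Atf1: AACagagaaGCTGCCcgagagtgcCGC
Atf2: AATagagcaGCAGCTtcaagatgcCGA
These lie, on GENCODE M21 and mouse build GRCm38 (mm10), at chr1:191172411-191172437 on the minus strand for Atf3, chr12:85631687-85631713 on the plus strand for Jdp2, chr12:85689310-85689336 on the plus strand for Batf and chr1:191100770-191100796 on the plus strand for Batf3. Those of Atf4 (chr15:80257266-80257292, plus), Atf5 (chr7:44813018-44813044, minus) and Atf2 (chr2:73828547-73828573, minus) also lie in 1 exon each. The stretches of Creb1 (chr1:64576325-64597255, plus) and Atf1 (chr15:100254509-100259836, plus) are joined across an intron. Identity between the 27-base stretches was highest for Atf4 and Atf5, at 20 bases, and was 19 bases each for Atf1 with Creb1, Atf3 with Jdp2 and Batf with Batf3. Atf2 with Jdp2 came next, at 18 bases. Identity was lowest, at 11 bases, for Atf5 with Creb1 and Batf with Creb1. The search pattern fixed some bases in all members, which raises the identity of every pair.

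Every member was present, and Atf3 stood far above the rest. Levels are TPM of the deposited gene table, an abundance per effective length scaled to the same sum in each library, given as mean ± SD (n = 3). All 10 members were detected at 0.1 TPM or more, against 52% of the protein-coding genes of the nuclear genome. All 10 also had a mean of 1 TPM or more, against 43.1% of those genes; it was 9 in the second transcript table and 9 without replicate 1, with Batf3 below 1 TPM in both. Atf3 and Atf4 lay in the highest 10% of the 11445 coding genes detected at 0.1 TPM or more, a class that holds 10% of those genes by construction and began at 41.7 TPM. Atf4, at 42.4 TPM, was just inside, and without replicate 2 Atf3 was the 1 member in the class. Libraries are of bulk cells, so fewer cells of a type and less RNA per cell cannot be told apart. The median of the members was 11.4 TPM, and that of the detected coding genes was 6.15 TPM. Summed over the members, TPM was 406, 487 and 266 in replicates 1, 2 and 3, and Atf3 held 68.8% ± 2.76 of it.

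**Figure D1:**
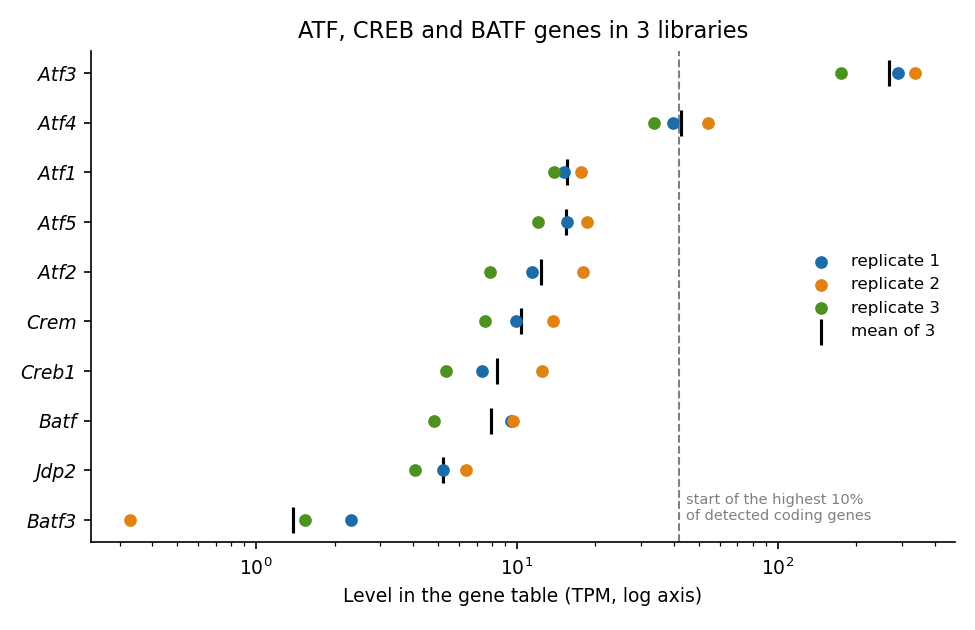
Level of each member (TPM, log axis) in the 3 libraries (coloured points) with the mean (black bar), ordered by mean; the dashed line is 41.7 TPM, where the highest 10% of detected coding genes begin. Atf3 lies between 175.21 and 336.79 TPM, above the other members in every library, and the Atf4 points lie on both sides of the line.

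Atf3 (ENSMUSG00000026628.13, chr1:191170296-191218039, minus strand), which encodes the brake on cytokine genes described above, had 289.77, 336.79 and 175.21 TPM in replicates 1, 2 and 3 (267 ± 83.1 TPM). It ranked 159 among the detected coding genes. The libraries differed, with replicate 3 lowest, but the lowest Atf3 value still exceeded the highest value of any other member. Jdp2 (ENSMUSG00000034271.16, chr12:85599027-85639878, plus strand), which encodes a JUN partner known to repress AP-1 sites and to take part in osteoclast formation, had 5.22, 6.38 and 4.06 TPM (5.22 ± 1.16). Within a library, Atf3 stood 5.55, 5.52 and 5.12 log2 units above Jdp2 on the log2(TPM + 1) scale (mean 5.40 ± 0.24), a scale that understates differences of low genes. With 3 libraries the exact two-sided sign-flip permutation test cannot give a p below 0.25, which is what this pair and every pair below with the same sign in all 3 libraries gave.

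The BATF genes were among the lowest members. Batf (ENSMUSG00000034266.6, chr12:85686669-85709087, plus strand), a JUN partner that acts with IRF4 and IRF8 in T cells and dendritic cells, had 9.46, 9.68 and 4.79 TPM (7.98 ± 2.76). Batf3 (ENSMUSG00000026630.9, chr1:191097847-191108945, plus strand), known for its need in cross-presenting dendritic cells, had 2.31, 0.33 and 1.54 TPM (1.39 ± 0.998), which rest on 66, 8 and 91 counts. Replicate 2 was the low library for Batf3, whereas replicate 3 was the low one for Batf. Batf stood 1.66, 3.01 and 1.19 log2 units above Batf3 (1.95 ± 0.94). The 5 dendritic cell markers checked (Ccr7, Siglech, Cd209a, Flt3 and Zbtb46) summed to 1.51, 1.33 and 1.58 TPM, with none at 1 TPM, and their part in the Batf3 values was not tested.

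Atf4 stood clearly above its closest relative. Atf4 (ENSMUSG00000042406.8, chr15:80255184-80257541, plus strand), the main effector of the integrated stress response, had 39.71, 53.94 and 33.64 TPM (42.4 ± 10.4). Atf5 (ENSMUSG00000038539.15, chr7:44812256-44816658, minus strand), a relative under the same kind of translational control, had 15.59, 18.62 and 12.03 TPM (15.4 ± 3.3). The ranges did not overlap, and Atf4 was 1.30, 1.49 and 1.41 log2 units above Atf5 (1.40 ± 0.10), the steadiest of the 5 pairs compared. Both proteins are controlled at translation, which RNA levels do not show. Atf5 overlaps Nup62, a nuclear pore gene on the opposite strand that had 1972, 2101 and 2798 counts, and because use of strand in counting is not given, reads of the shared part are uncertain. The same holds for Jdp2 and Gm47863, a noncoding gene with 73, 76 and 129 counts, and for Crem and Gm6225, which lies over the first Crem start cluster and had 15.31, 5.43 and 52.15 counts.

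The CRE-binding genes and Atf2 lay close together in the middle of the order. Creb1 (ENSMUSG00000025958.14, chr1:64532645-64604548, plus strand), the cAMP-responsive activator, had 7.34, 12.46 and 5.36 TPM (8.39 ± 3.66). Atf1 (ENSMUSG00000023027.13, chr15:100227819-100261244, plus strand), its close relative and dimer partner, had 15.17, 17.56 and 13.81 TPM (15.5 ± 1.9). No library had as much Creb1 as Atf1, and Creb1 was lower by 0.96, 0.46 and 1.22 log2 units (mean -0.88 ± 0.38). That order holds per length: on expected counts without length, Creb1 exceeded Atf1 by 0.39 log2 units. Crem (ENSMUSG00000063889.16, chr18:3266048-3337748, minus strand), which gives both activators and the ICER repressors, had 9.92, 13.70 and 7.56 TPM (10.4 ± 3.1), and was above Creb1 by 0.39, 0.13 and 0.43 log2 units (0.31 ± 0.16). On counts without length this difference was -2.00. Atf2 (ENSMUSG00000027104.18, chr2:73816509-73892639, minus strand), the p38 and JNK target, had 11.40, 17.93 and 7.86 TPM (12.4 ± 5.11).

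By mean TPM the order was Atf3, Atf4, Atf1, Atf5, Atf2, Crem, Creb1, Batf, Jdp2 and Batf3. Of its 9 neighbouring pairs, 7 kept 1 sign in all 3 libraries. The order was taken from these same libraries, which favours such agreement. Atf1 and Atf5 did not differ beyond their spread (0.02 ± 0.14 log2 units), nor did Creb1 and Batf (0.05 ± 0.34). The narrowest of the other pairs was Atf2 above Crem, by 0.18, 0.36 and 0.05 log2 units. Atf3, Atf4, Crem, Jdp2 and Batf3 held places 1, 2, 6, 9 and 10 in every library, while the other members changed places.

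The order of the libraries in TPM was that of most other genes. TPM was lowest in replicate 3 for 9 of 10 members, with Batf3 the exception, against 87.4% of detected coding genes, and highest in replicate 2 for 9 of 10, against 64.2%. Coding genes of the nuclear genome held 32.8%, 36.2% and 23.5% of TPM in replicates 1, 2 and 3. Without Batf3, the highest library exceeded the lowest by 1.27 to 2.32 times in TPM and by 1.09 to 1.46 times in TMM-normalized CPM, which scales counts and uses no length. Creb1 showed the widest gap between the scales, 2.32 times in TPM and 1.09 in CPM (57.7, 62.6 and 59.9 CPM), and its deposited effective length was 5434, 3747 and 5695 bases. Atf3 had 738, 791 and 603 CPM (710 ± 96.6).

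**Figure D2:**
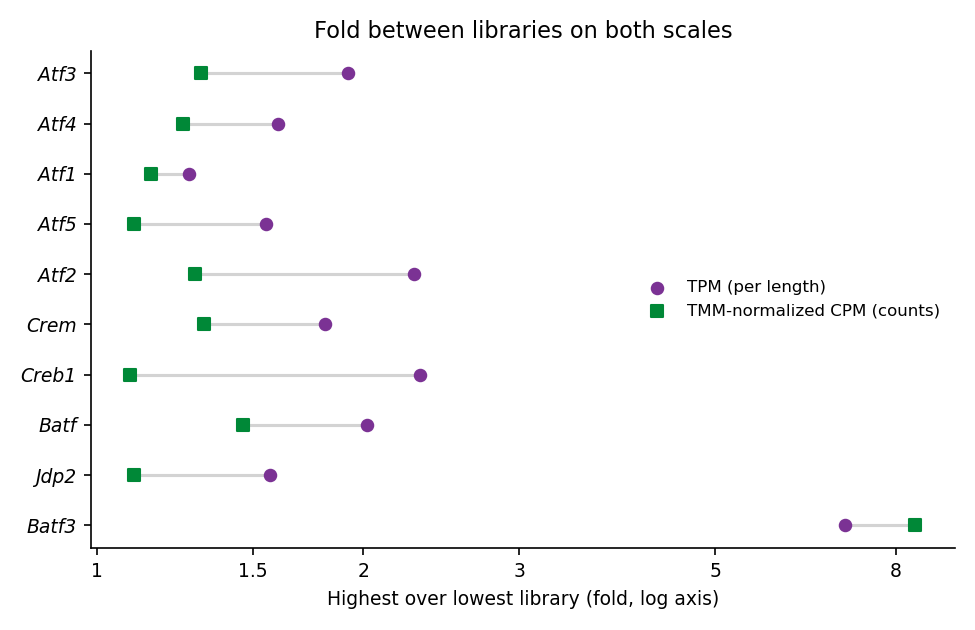
Highest over lowest library (fold, log axis) for each member in TPM (circles) and in TMM-normalized CPM (squares). The CPM value is the smaller one for 9 members, Creb1 spans 1.09 to 2.32, and Batf3 stands apart at 7 times in TPM and 8.42 times in CPM.

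The spread between libraries was tested across all genes with an edgeR goodness-of-fit test on expected counts. It called 209 of 12250 genes, 1.71%, at an adjusted p under 0.05, and 753, 6.15%, at an unadjusted p under 0.05. Of the members, 9 entered the test, and none was called by either rule. DESeq2's dispersion trend called none of them either. Their unadjusted p ran from 0.26 for Atf2 to 0.908 for Jdp2, and the edgeR adjusted p was 1.0 for each. This does not show that the members were equal in the libraries. The SD of log2 CPM ran from 0.066 for Creb1 to 0.29 for Batf, with a median of 0.166 over the members tested and 0.151 over the detected coding genes. Batf3 did not pass the filter on low counts. With no filter its unadjusted p was 0.00701 and its edgeR adjusted p 0.323, and its CPM was 1.74, 0.207 and 1.61. The 3 genes whose CPM moved between the 3 libraries most like that of Atf3, out of 9467, were Med31, a Mediator subunit gene, Polk, a DNA polymerase gene, and Ccnb2, a cyclin gene. Their root mean square distances were 0.003, 0.005 and 0.005 log2 units. Among 9467 genes over only 3 libraries, such close matches can be found without any link. A link of these genes with Atf3 was not tested.

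Transcripts split the members into genes with 1 dominant form and genes with several. Of the members, 5 had 1 annotated start cluster (starts joined within 500 bases) with 90% or more of their TPM. Atf3-201 held 99.9% of Atf3, Batf-201 held 99.4% ± 0.634 of Batf, and Atf4-201 held 97.7% ± 1.64 of Atf4. Transcripts whose annotated coding sequence holds the basic region made up 99.9% of Atf3 and 100% of Atf5. That share was lower for Batf3, at 72.4% ± 10.2, Atf2, at 79.2% ± 7.52, Creb1, at 83.2% ± 4.69, Crem, at 83.3% ± 7.5, and Atf1, at 84.4% ± 4.55. Nearly all the rest of Batf3 was Batf3-205, a transcript with no annotated coding sequence, at 26.6% ± 11.1, and most of the rest of Atf1 was Atf1-206, annotated for nonsense-mediated decay, at 12.8% ± 5.19. By counts, which give long transcripts more weight, the start cluster of Atf1-206 held 4.29% ± 1.81 of Atf1. In the second transcript table, another quantification deposited by the authors, Atf1-206 held 22%, 30.5% and 28.5% in replicates 1, 2 and 3. The share with the basic region there was 58% for Atf1 and 70.3% for Jdp2, and it was 84.4% and 94.9% in the first table. The rest of Jdp2 was Jdp2-204, whose annotation ends at chr12:85608292, before the basic region is reached. Some short Atf1 forms also end before that region. Whether such RNA lacks the region is not known.

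Most Crem TPM lay in transcripts that start near the 3′ end of the gene. The ICER repressors, which keep the DNA-binding end of CREM and lack its activation domain, are known to come from an internal promoter. The 7 Crem transcripts that start in the 2 clusters nearest the 3′ end held 72.6%, 60% and 70.4% of Crem TPM (67.7% ± 6.7), or 7.2, 8.25 and 5.32 TPM. All 7 encode 95 to 125 codons with the basic region. The first cluster, whose basic-region forms have 245 to 357 codons, held 22.7%, 37.2% and 27.1% (29% ± 7.43). The internal share was above that of the first cluster in every library. All internal starts together held 77.3%, 62.8% and 72.9% of TPM, and 79.5%, 64.8% and 78.6% in the second table. By counts, which give long transcripts more weight, they held 53.9%, 35.5% and 49.8%, so the first cluster had more counts in replicates 2 and 3. The annotation does not mark which transcripts are ICER. Single forms were not steady: Crem-235 held 27%, 17.9% and 10.2%, Crem-229 held 16.6%, 0% and 22.5%, and Crem-206 held 8.48%, 12% and 9.52%.

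**Figure D3:**
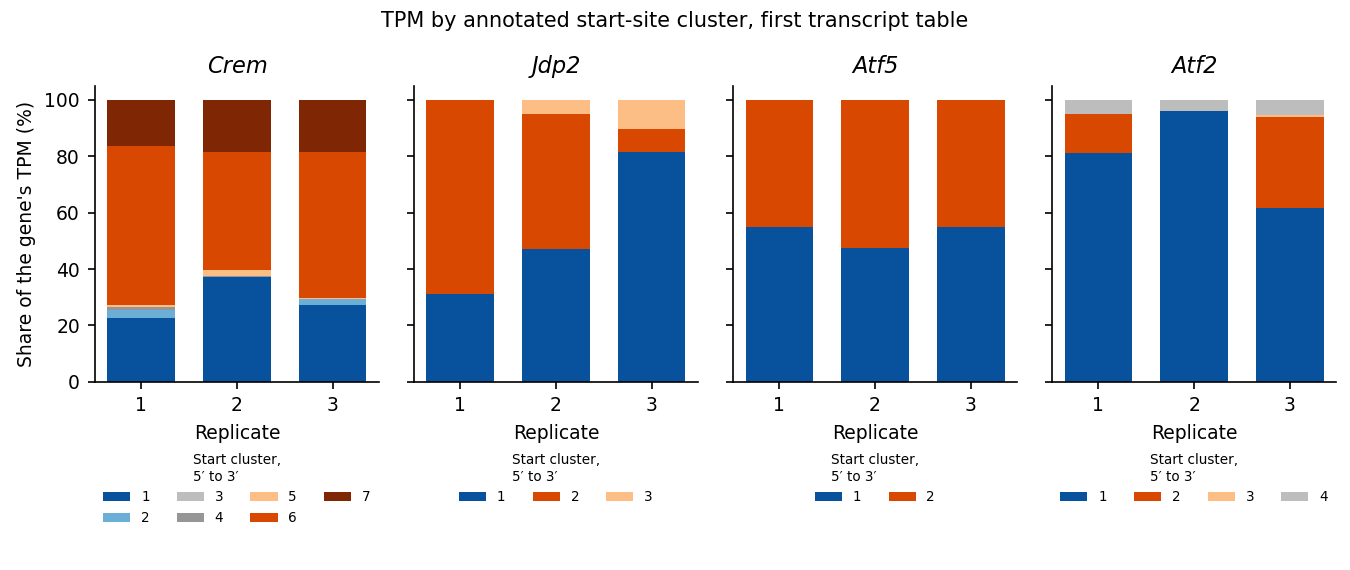
Share of gene TPM (%) by annotated start cluster, numbered from the 5′ end, in each library for Crem, Jdp2, Atf5 and Atf2. Clusters 6 and 7 of Crem hold 60% to 72.6%, both Atf5 starts hold close shares in all libraries, and the shares of Jdp2 and Atf2 differ most between libraries.

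Atf5 TPM was divided about equally between transcripts from 2 annotated starts. Atf5-201 held 55%, 47.5% and 54.9% of its TPM and Atf5-202, from a start 1000 bases downstream, held 45%, 52.5% and 45.1%. The order turned round in replicate 2, and the second table gave 51.6% and 48.4% on average. Both forms encode the same 283 codons. Nup62, on the opposite strand, covers the start of Atf5-201 and not that of Atf5-202, so the split is uncertain while use of strand is not known. Jdp2 differed more. Jdp2-201 held 31%, 47.2% and 63.2%, and Jdp2-202, from a start 602 bases downstream, held 69%, 47.8% and 8.15%. Replicate 3 was the low library for Jdp2-202, at 0.33 TPM with a deposited interval up to 1.13, against 3.6 TPM (from 1.89) in replicate 1 and 3.05 TPM (from 1.56) in replicate 2. The second table gave Jdp2-202 shares of 56.3%, 45.4% and 34% and put 29.7% on Jdp2-204, which had 5.13% in the first table. Jdp2-204 is annotated with 349 bases, and by counts in the first table its share was 0.505% ± 0.526.

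Atf2 and Creb1 were divided among many forms. Atf2-206 held 20.9% ± 5.88 of Atf2 TPM, followed by Atf2-203 with 15.4%, Atf2-210 with 13.3%, Atf2-201 with 11.2% and Atf2-204 with 11%. Atf2-203 had 13.9%, 0% and 32.2% in replicates 1, 2 and 3, whereas Atf2-210, whose 228 annotated codons hold no basic region, had 9.74%, 24.8% and 5.34%. The annotated Atf2-210 ends at chr2:73845440, before the basic region is reached, so whether such RNA lacks that region is not known. Replicate 2 was the lowest library for Atf2-203 and the highest for Atf2-210. The second table gave another order, with Atf2-210 at 20.2%, Atf2-207 at 18% (7.42% in the first table), Atf2-206 at 15.8% and Atf2-203 at 4.47%. Creb1-202 held 60.4%, 37.7% and 62.9% of Creb1, with replicate 2 the lowest, and Creb1-209 held 19.1%, 24.3% and 10.8%. In the second table Creb1-202 held 34.9%, 24.9% and 37.9%, and Creb1-201, at 2.06% in the first table, averaged 18.4%. Shares of single transcripts come from reads that several forms share.

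**Figure D4:**
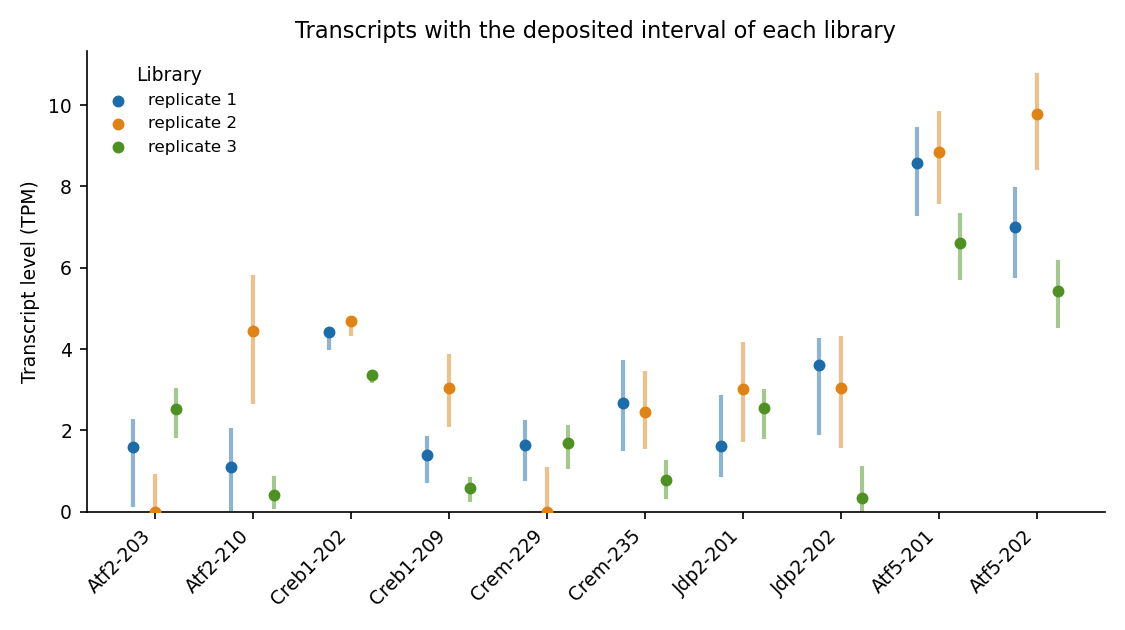
TPM of 10 of the 21 named transcripts, picked with their values known from genes with several forms (points) in each library with the interval deposited by the authors (lines; its level is not given in the sources used here, and a point can lie at its edge). The intervals of all 3 libraries meet for 2 transcripts, Crem-229 and Jdp2-201, and those of at least 1 pair of libraries do not meet for the other 8. Over all 21 named transcripts they meet for 7. TPM was lowest in replicate 3 for 87.4% of detected coding genes. Intervals that do not meet therefore need not mark a change in the share of a form. They do not meet for Atf3-201 either, which held 99.9% of Atf3.

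Several members neighbour each other. Batf3 and Atf3 lie 61.4 kb apart on chromosome 1 on opposite strands, with 1 coding gene between, and Jdp2 and Batf lie 46.8 kb apart on chromosome 12 on the same strand, with no coding gene between. Fos lies 122 kb from Jdp2 on its other side. Jdp2 and Batf had means of 5.22 and 7.98 TPM, next to each other in the order, whereas Atf3 had 267 TPM and Batf3 1.39 TPM. Fos had 433 ± 58.4 TPM.

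The promoters of Atf3, Atf4 and Jdp2 are shown because they hold letters that members of these groups are known to bind, in the 2 highest members and in the close relative of Atf3. The windows are the 120 bases before the RefSeq start, 5′ to 3′ on the gene's strand, from RefSeq on GRCm38.p6, with found motifs in capitals (CGTCA and TTGCATCA are TGACG and TGATGCAA on the other strand).
Atf3: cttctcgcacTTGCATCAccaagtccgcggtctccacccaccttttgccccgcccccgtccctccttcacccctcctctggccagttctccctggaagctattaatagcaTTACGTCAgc
Jdp2: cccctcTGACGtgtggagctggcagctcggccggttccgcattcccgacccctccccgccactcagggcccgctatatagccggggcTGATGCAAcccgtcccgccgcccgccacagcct
Atf4: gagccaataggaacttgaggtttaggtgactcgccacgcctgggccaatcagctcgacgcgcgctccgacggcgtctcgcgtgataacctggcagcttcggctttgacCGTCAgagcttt
They lie at chr1:191183334-191183453 on the minus strand for Atf3, chr12:85599296-85599415 on the plus strand for Jdp2 (before the start of Jdp2-201) and chr15:80255064-80255183 on the plus strand for Atf4. Letters were searched on both strands in 12 windows of 300 bases, 250 before to 50 after the start, of 9 members; Crem was not included. The CRE, TGACGTCA, was in none of the 12 windows and in 1.79% of 32851 mouse promoters of the same length. A variant, TTACGTCA, was in the Atf3 window alone and in 0.499% of promoters. The last 7 bases of the printed Atf3 window lie in an annotated Atf3 exon, so this match lies across the annotated start of Atf3-201. The variant holds, on its other strand, the half-site TGACG, which was in 5 member windows (Atf3, Jdp2, Batf, Atf4 and Atf1) and in 20.8% of promoters. The C/EBP-ATF element, TGATGNAA, was in the windows of Atf3 and Jdp2 and in 3.97% of promoters. The AP-1 site, TGANTCA, was in none, and in 7.81% of promoters. A match describes letters and is not a bound site.

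Around the members, 9 lists of 79 genes were described. Of 11 other ATF and CREB family genes, 8 were at 1 TPM or more and none was in the highest 10%. Atf7, a close relative of Atf2, had the most, with 27.9 ± 12.3 TPM, before the membrane-bound stress factors Atf6 at 18.6 and Atf6b at 16.6 TPM, and Creb3l3, known from liver, was lowest at 0.31 TPM. Among 8 CREB coactivators and SIK kinases, all were at 1 TPM or more, from Ep300 at 27.9, Crebbp at 12.7 and Sik3 at 10.5 TPM to Crtc1 at 1.59 TPM. Of 10 kinases known to phosphorylate these factors, 9 were at 1 TPM or more. They were led by Mapkapk2 (85.5 TPM), the protein kinase A subunit Prkacb (44.8) and Mapk14, or p38alpha (27.8). Of the MSK genes, Rps6ka5, which encodes MSK1, was lowest of the list at 0.837 TPM, and Rps6ka4, which encodes MSK2, had 8.18 TPM. No gene of these 3 lists was called for spread between libraries, by the same edgeR test.

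Among cAMP phosphodiesterases and prostaglandin E receptors, with the adenylyl cyclase gene Adcy7, 5 of 7 were at 1 TPM or more, with Pde4b at 50.4, Adcy7 at 25.7, Ptger4 at 5.8 and Pde4d at 0.617 TPM. All 7 genes of the eIF2alpha list were at 1 TPM or more. Its highest was Ppp1r15a, or GADD34, a phosphatase subunit that ends the stress response, with 603.30, 882.49 and 240.10 TPM, followed by Eif2ak2 (PKR) at 18.5 and Ppp1r15b at 15.4, and Eif2ak4 (GCN2) was lowest at 3.47 TPM. Ppp1r15a was called for spread (edgeR adjusted p = 0.0115), with replicate 3 low. Of 13 known ATF4 targets and partners, 10 were at 1 TPM or more and 2 in the highest 10%. Slc3a2, an amino acid transporter subunit, led at 141 TPM, before Cebpb at 48.6 and Ddit3 (CHOP) at 38.6, and Chac1 was lowest at 0.113 TPM. Cebpb, a partner of ATF4, had 48.66, 33.46 and 63.65 TPM, with replicate 3 high, and was called (edgeR adjusted p = 1.07e-05).

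The JUN and FOS partners stood higher as a list. Of 11 FOS, JUN and MAF partners, 10 were at 1 TPM or more and 6 in the highest 10%, with a median of 46.3 TPM beside 11.4 TPM for the members. Junb had 502, Fos 433 and Jun 171 TPM, and Fosl1 was at 0.0133 TPM, with counts of 0, 0 and 4. Of the IRF partners of BATF factors, Irf8 had 63.1 ± 12.4 TPM and Irf4 0.683 TPM. Of 10 genes listed as CREB targets, whose control by CREB in these cells was not tested, 8 were at 1 TPM or more. In the highest 10% were 3, namely Dusp1 (495 TPM), a MAP kinase phosphatase gene, the nuclear receptor gene Nr4a1 (189) and Il10 (104). The lowest was Ppargc1a at 0.0133 TPM. Nr4a3, with 2.15, 5.39 and 1.31 TPM, was the list's gene called for spread (edgeR adjusted p = 0.00778), with replicate 2 high.

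**Figure D5:**
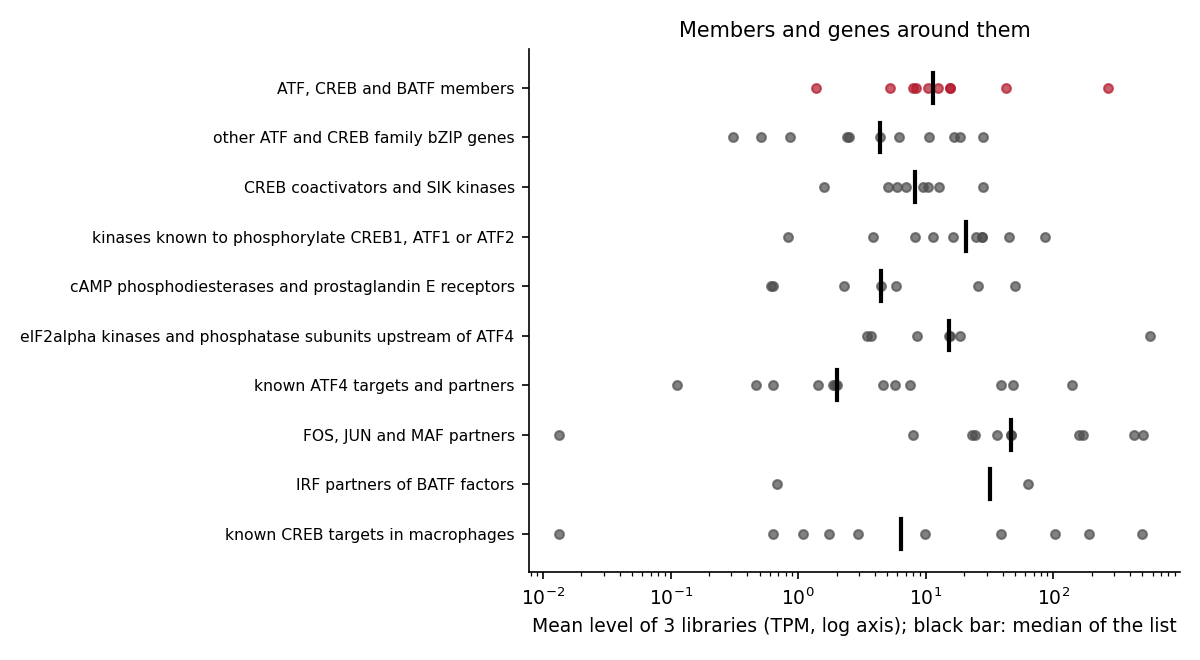
Mean TPM of 3 libraries (log axis) for the members (red, top) and for each gene of the 9 lists (grey), with the list median as a black bar. The median is 11.4 TPM for the members and 46.3 TPM for the FOS, JUN and MAF partners, and Ppp1r15a at 575 TPM stands alone in the eIF2alpha list.

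The cells carried macrophage RNA. All 6 macrophage markers were at 1 TPM or more, from Itgam at 25.7 to Lyz2 at 5974 TPM, and they summed to 5356 to 9189 TPM. The 5 neutrophil markers summed to 33.7 to 44.4 TPM, and 3 of them were at 1 TPM or more. These were S100a9 at 22.9, S100a8 at 12.7 and Ngp at 2.8 TPM. Elane was at 0.18 TPM, and Ly6g had 0 counts in all libraries. The source of the neutrophil marker RNA was not tested. B cell, T cell, NK cell, stromal and erythroid markers summed to at most 0.23 TPM each in any library, and Cd3e and Ncr1 had 0 counts. The mast cell and basophil markers summed to 0.44 to 0.68 TPM, mainly Kit. Gene counts summed to 37861150, 37136495 and 58889061 in replicates 1, 2 and 3, where a count of 0 allows up to 0.0792, 0.0808 and 0.0509 CPM, taking 3 counts as the limit for counting error.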

How the data were processed

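For each library, 1 gene table and 2 transcript tables were used, on mm10 per the labels and with GENCODE M21 identifiers. The gene and first transcript tables hold expected counts and TPM deposited by the authors, and the second holds estimated counts and TPM deposited by the authors. Quantification tools and strand setting: not given in the sources used here. Gene IDs matched GENCODE M21, and features that name no gene (0.314%, 0.0927% and 0.0533% of counts in replicates 1, 2 and 3) were left out. Expected counts were whole within 0.01 for 8 members and divided with other genes for Atf1 and Crem. They were rounded for edgeR 4.0.16 (R 4.3.3): genes passing filterByExpr were TMM-normalized and fitted with 1 mean per gene and a trended dispersion, and deviance was tested for goodness of fit with Benjamini-Hochberg adjustment at 0.05, tested on simulated data. DESeq2 1.42.0 gave an alternative trend. Pair differences used log2(TPM + 1). Start sites within 500 bases were joined, and internal starts lay over 1000 bases downstream of the first. Replicate pairs differed beyond sampling noise (chi-square per degree of freedom 58.5 to 145).

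The members and lists were chosen with earlier results of these data known. Text names every member, transcripts with 10% or more of a member's TPM, the 3 highest and the lowest gene of each list, genes called for spread, and the 3 genes most like the highest member. Atf2-207, Creb1-201, Jdp2-204, Fos, Rps6ka4 and the markers were named outside this rule. Alternatives were other tables, scalings, filters, thresholds, pseudocounts and each library left out.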

Additional observations from a re-analysis of the deposited data

How the results depend on the processing

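No paired analysis was possible because the libraries form 1 group. No member was called for spread under any alternative run. Members at 1 TPM or more numbered 9 in the second table, without replicate 1 and at 2 TPM, against 10. Over all genes the calls numbered 116 with coding genes alone and 59 to 129 with 1 library left out (59 without replicate 3), against 209. In the highest 10%, 1 member (Atf3) in place of 2 was found in the second transcript table, without replicate 2 and with detection at 1 TPM. The second table gave 4.67 for Atf3 over Jdp2, 1.13 for Atf4 over Atf5 and 0.09 for Crem over Creb1 on the log2 scale; the last stayed positive on average, with Creb1 higher in replicate 2 (6.51 TPM for Crem and 6.69 for Creb1). Counts without length gave 5.94 for Atf3 over Jdp2 and turned round Creb1 over Atf1 (0.39) and Crem over Creb1 (-2.00), as the genes differ in length. Crem's internal share, 71% on average, was 46.4% by counts and 78.6% among protein-coding transcripts. Levels were lower in the second table (Atf3 119 TPM) and higher when rescaled to coding genes (853 TPM). Batf3 rests on 8 counts in replicate 2, which limits every value it enters.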
